A study of Sus scrofa with 15 samples.

Results

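The killer lectin-like receptors KLRG1, KLRK1, KLRD1, KLRB1 and KLRC1 are surface receptors of natural killer (NK) cells with a C-type lectin-like domain. The genes were picked by symbol. Of the 5 genes listed, 4 were matched to the 29886 genes of the count table, and KLRC1 was not analysed here. All 4 matched genes were among the 10939 genes that passed edgeR's default filter on low counts.

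NK cells weigh signals from inhibitory and activating receptors when they meet another cell, and many of these receptors belong to the killer lectin-like family. Most of the family's genes lie close together in the genome, in the NK gene complex. Many inhibitory members carry their own signalling motif in the cytoplasmic tail and recruit phosphatases, while the activating member KLRK1 signals through separate adaptor proteins in the membrane.

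RNA came from NK cells of 5 pigs, 6 months old, sorted by FACS as CD3-CD172a- cells with either high or dim CD8α. Each pig (donors 1 to 5) gave 3 populations: CD8α high cells from blood (labelled Blood NK), CD8α high cells from liver (Conventional liver NK) and CD8α dim cells from liver (Liver resident NK, here lrNK), which makes 15 libraries with 5 per population. Liver cells were those released by flushing the portal vein with PBS, and the labels name no treatment. Libraries were sequenced from the 3′ end of transcripts, so counts do not grow with transcript length.

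The total count per library was 2874092 to 3823973 in blood (median 3749615), 2886686 to 5680221 in liver CD8α high cells (median 3877028) and 2003499 to 3776823 in lrNK cells (median 2407859). Levels are given in CPM, the standard unit of edgeR for a gene's count relative to the size of its library, here after TMM normalization. Log2 fold changes carry their standard error (SE), and a gene was called different at an adjusted p under 0.05 (edgeR, Benjamini-Hochberg over 10939 genes). The 3 comparisons share libraries, so their values stand side by side and are not independent. In bulk RNA, fewer cells that carry a transcript and less of it per cell cannot be told apart.

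The sort could be checked against 8 genes that mark these populations, of which 7 passed the filter. CD8A, which encodes the sorted CD8α chain, had a mean of 466 ± 149 CPM in blood (SD, n = 5), 490.3 ± 138 CPM in liver CD8α high cells and 43.4 ± 10.5 CPM in lrNK cells. Its log2 fold change of lrNK cells against blood was -3.43 (edgeR, Benjamini-Hochberg adjusted p = 1.24e-08, lower in 5 of 5 donors). In both comparisons of lrNK cells, CD8A, TBX21, ZEB2 and CX3CR1 were lower and EOMES, CXCR6 and NCR1 were higher, 7 of 7. Of all genes tested, 18.2% were called against blood and 14.6% against liver CD8α high cells. The study had already reported low TBX21, ZEB2 and CX3CR1 and high EOMES, CXCR6 and NCR1 in lrNK cells from these libraries. CD8A encodes the chain used for sorting, so none of the 7 is an independent check. Between the CD8α high populations, where 0.064% of all genes tested were called, 1 of the 7 was called, CXCR6. It was higher in liver in 5 of 5 donors, with a log2 fold change of 4.88 (edgeR, Benjamini-Hochberg adjusted p = 0.036). That call was lost with the donor as a block (4.48), in a robust fit (4.88), without the liver CD8α high library of donor 1 (3.80) and without donor 1 (3.47), donor 2 (4.83), donor 4 (4.89) or donor 5 (5.28). The call was kept by DESeq2 and without the lrNK library of donor 3 (4.88; edgeR, Benjamini-Hochberg adjusted p = 0.00548).

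Markers of other cells were also read. Of the 4 B cell markers used here, 3 passed the filter, and all 3 (MS4A1, CD79B and PAX5) were called higher in lrNK cells than in either other population. Of all genes tested, 8.62% were called higher against blood and 6.96% against liver CD8α high cells. Against blood, the call of CD79B (2.73) was lost without donor 1 (2.74), donor 2 (2.47) or donor 4 (2.43), and that of PAX5 (2.77) without donor 2 (2.26). The summed level of the 4 in lrNK cells was 378, 565, 188, 648 and 235 CPM in donors 1 to 5. In blood the sum was 51.5, 49.1, 99.9, 37.2 and 9.55 CPM, and in liver CD8α high cells 38.7, 24.3, 14.5, 1.21 and 0 CPM. MS4A1 was the most abundant, at 267 ± 134 CPM in lrNK cells (n = 5), and CD79A had no count in any library. The part of these transcripts in the differences of receptor, signalling and other genes below was not tested.

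Of 6 T cell markers, 3 passed the filter and 1, CD3G, was called, lower in lrNK cells than in blood with a log2 fold change of -1.58 (edgeR, Benjamini-Hochberg adjusted p = 0.00216). It was also called lower in lrNK than in liver CD8α high cells, at -1.51 (edgeR, Benjamini-Hochberg adjusted p = 0.00374), where with the donor as a block CD3E was called lower too (-2.77). Of all genes tested, 9.6% were called lower against blood and 7.68% against liver CD8α high cells. CD3G was the most abundant of the T cell markers, with a mean of 865 CPM in blood against 3.78 CPM for CD3D and 10.2 CPM for CD3E, so it makes up most of the sums. CD4 and CD5 had no count in any library. CD3D had 1.15 in lrNK cells against blood, higher in 4 of 5 donors, and 0.20 against liver CD8α high cells, and was not called. The summed T cell markers were 637, 939.9, 743, 1203 and 878 CPM in blood, 722, 788, 714, 907 and 1076 CPM in liver CD8α high cells, and 593, 109.9, 120.3, 383 and 291 CPM in lrNK cells. The 6 myeloid markers summed to at most 25.6 CPM, in lrNK donor 4, with LYZ the most abundant and CSF1R, CD163 and MARCO at 0. LYZ, the myeloid marker tested, was called higher in lrNK than in liver CD8α high cells (log2 fold change 4.57; edgeR, Benjamini-Hochberg adjusted p = 0.0272), a call lost with the donor as a block (4.63) and without donor 4 (3.20) or donor 5 (4.34). In blood libraries the myeloid sum was 5.42, 0, 6.24, 1.45 and 0 CPM, in liver CD8α high libraries 1.04, 0.791, 0, 0 and 0 CPM, and in lrNK libraries 6.65, 8.16, 0, 25.6 and 6.53 CPM. SIRPA, which encodes the gate marker CD172a, was at 0 in 14 of 15 libraries. The 6 hepatocyte markers summed to at most 9.74 CPM, with ALB the most abundant and APOA1, APOC3 and SERPINA1 at 0. Their sum was 0 in all 5 blood libraries, 3.45, 0, 0, 0.345 and 2.15 CPM in liver CD8α high cells and 5.81, 0.96, 9.74, 8.14 and 0 CPM in lrNK cells. ALB, which did not pass the filter, was called higher in lrNK cells than in blood with no filter on low counts (6.21), on 0 to 24 counts per lrNK library. Endothelial markers (VWF the most abundant, with STAB2, LYVE1 and CDH5 at 0) reached 1.08 CPM, and PPBP, the platelet marker read, reached 2.35 CPM. Of 3 markers of other innate lymphoid cells, IL1RL1 was the most abundant and the 1 that passed the filter. It was higher in lrNK cells than in blood (log2 fold change 5.37; edgeR, Benjamini-Hochberg adjusted p = 5.4e-05), with sums of the 3 markers of 13.9 to 71.6 CPM in lrNK cells, 1.12 to 7.25 CPM in liver CD8α high cells and 0 to 4.88 CPM in blood. The part of the cells that carry these markers in the differences of receptor, signalling and other genes below was not tested.

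A pair of libraries stood apart from their population. The lrNK library of donor 3 had a mean correlation of 0.795 with the other lrNK libraries, against 0.864 to 0.885 for the rest. It also stood alone on the second principal component of the 500 most variable genes, which held 5.87% of the variance, at 35.2 against -16 to -3.16. On the first component, which held 69%, the liver CD8α high library of donor 1 was at -8.51 against -37.2 to -24.9 for the other liver CD8α high libraries, nearer to the lrNK libraries at 50.8 to 59.1. EOMES was 217.6 CPM in that library and 14.1 to 62.5 CPM in the other 4. In the lrNK library of donor 3, CXCR6 was 86.2 CPM against 607 to 837 CPM in the other lrNK libraries. NCR1 was 156 CPM there against 248 to 356 CPM, while EOMES, at 713 CPM, lay within the range of the others. Its sum of innate lymphoid markers, 71.6 CPM, was the highest of the lrNK libraries. Calls that change without either library are given with and without it, and some medians and correlations are given both ways too.

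Between lrNK cells and blood, which differ in both organ and CD8α level, 3 of the 4 receptor genes were called. KLRB1 and KLRD1 were higher and KLRG1 was lower, while KLRK1 was not called. Of all genes tested, 18.2% were called in this comparison, 8.62% higher and 9.6% lower. The median log2 fold change was 0.74 over the 4 receptor genes and 0.00595 over all genes tested.

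Between lrNK cells and liver CD8α high cells, which sets the populations of 1 organ against each other, 2 of the 4 were called, KLRB1 higher and KLRG1 lower. Here 14.6% of all genes tested were called, 6.96% higher and 7.68% lower, with a median log2 fold change of 0.18 over the receptor genes and 0.0157 over all. The former was 0.36 without the lrNK library of donor 3 and 0.51 without the liver CD8α high library of donor 1. Without the liver CD8α high library of donor 1, 3 of the 4 were called, since KLRD1 was then called higher with a log2 fold change of 1.72.

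Between the CD8α high cells of liver and blood, which asks whether the organ alone goes with a difference, 0 of the 4 were called by edgeR, 0 had an unadjusted p under 0.05 and 0 were called by DESeq2. The background here was 0.064% of all genes tested, 0.0457% higher and 0.0183% lower. The median log2 fold change was 0.43 over the 4, or 0.14 without the liver CD8α high library of donor 1, and -0.0242 over all genes tested.

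**Figure D1:**
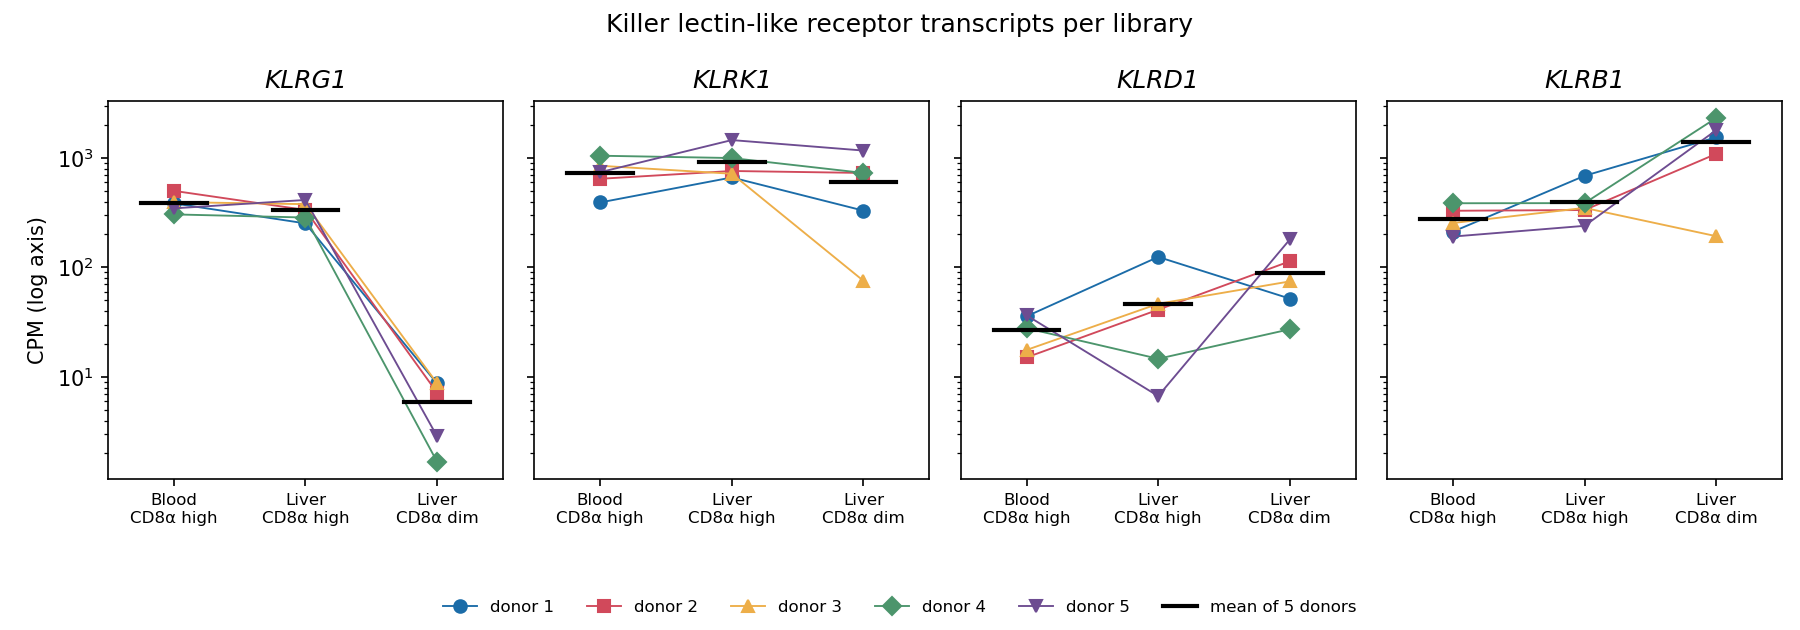
CPM of KLRG1, KLRK1, KLRD1 and KLRB1 on a log axis in each of 15 libraries; points joined by a line are the 3 populations of 1 donor, and black bars are means of 5 donors. KLRG1 is at 1.69 to 8.77 CPM in all lrNK libraries, and the lrNK library of donor 3 is the lowest of its population for KLRK1 and KLRB1.

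KLRG1 is an inhibitory receptor of mature NK and T cells that binds cadherins. In blood it had 385, 501, 395, 305 and 346 CPM in donors 1 to 5. In liver CD8α high cells of the same donors the levels were 252, 335, 378, 286 and 413 CPM. In lrNK cells they were 8.72, 7.20, 8.77, 1.69 and 2.87 CPM. All lrNK libraries were far below all libraries of both other populations, whereas the CD8α high populations of blood and liver overlapped. The study had already reported very weak KLRG1 expression in lrNK cells from these libraries.

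The order of KLRG1 means was blood at 386 ± 73.0 CPM (SD, n = 5), liver CD8α high cells at 333 ± 65.6 CPM and lrNK cells at 5.85 ± 3.35 CPM, and the first 2 did not differ beyond their spread. Against blood, lrNK cells had a log2 fold change of -6.14 ± 0.33 (SE), a fold of 70.4 (edgeR, Benjamini-Hochberg adjusted p = 7.54e-11, lower in 5 of 5 donors). The contrast with liver CD8α high cells, of the same organ, was -5.92 ± 0.33, a fold of 60.7 (edgeR, Benjamini-Hochberg adjusted p = 1.02e-10, lower in 5 of 5 donors). Liver CD8α high cells against blood gave -0.21 ± 0.24, lower in 4 of 5 donors and not called (edgeR, Benjamini-Hochberg adjusted p = 0.9996). This ran from -0.33 without donor 5 to -0.11 without donor 2. Among lrNK libraries KLRG1 was still detected in each donor, and the lowest, in donors 4 and 5, came from the 2 deepest lrNK libraries, at 3776823 and 3686363 counts.

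KLRK1 encodes NKG2D, an activating receptor for stress-induced ligands related to MHC class I. Its levels in blood were 392, 645, 848, 1048 and 741 CPM in donors 1 to 5. Liver CD8α high cells had 663, 759.9, 717, 998 and 1456 CPM. For lrNK cells the values were 330.2, 729, 75.5, 729 and 1168 CPM. The populations overlapped, and the lrNK library of donor 3 was the lowest of all 15 while the other 4 lrNK libraries lay within the range of the CD8α high libraries or, in donor 1, below it.

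KLRK1 was highest on average in liver CD8α high cells (919 ± 326 CPM, n = 5), then in blood (735 ± 243 CPM) and then in lrNK cells (606 ± 419 CPM), and no neighbours in that order differed beyond their spread. The log2 fold change of lrNK cells against blood was -0.27 ± 0.43, lower in 3 of 5 donors and not called (edgeR, Benjamini-Hochberg adjusted p = 0.729). Without the lrNK library of donor 3 its sign turned, to 0.03 (edgeR, Benjamini-Hochberg adjusted p = 0.961, from 0.401 to 0.961 over all alternatives), and without all 3 libraries of donor 3 it was 0.07. It was -0.64 without donor 5 and -0.50 with the donor as a block. In lrNK against liver CD8α high cells it was -0.60 ± 0.43, lower in 5 of 5 donors and not called (edgeR, Benjamini-Hochberg adjusted p = 0.432), and -0.31 without the lrNK library of donor 3. Liver CD8α high cells against blood gave 0.32 ± 0.43, higher in 3 of 5 donors and not called (edgeR, Benjamini-Hochberg adjusted p = 0.9996), and this ran from 0.11 without donor 5 to 0.46 without donor 3.

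KLRD1 encodes CD94, which has no signalling motif of its own and reaches the surface paired with a chain of the NKG2 group, such as the product of KLRC1. In blood the levels were 35.8, 15.1, 17.6, 27.8 and 36.5 CPM in donors 1 to 5. In liver CD8α high cells they were 124.7, 41.1, 46.6, 14.6 and 6.69 CPM. In lrNK cells they were 51.9, 113.8, 74.5, 27.2 and 179.95 CPM. The lrNK libraries of donors 1, 2, 3 and 5 were above all blood libraries, while donor 4 lay within the blood range. Liver CD8α high libraries ran from the lowest of all 15, in donor 5, to above all blood and 4 of the 5 lrNK libraries, in donor 1, and overlapped both other populations.

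For KLRD1 the order of means was lrNK cells at 89.5 ± 59.8 CPM (n = 5), liver CD8α high cells at 46.7 ± 46.7 CPM and blood at 26.6 ± 9.96 CPM, and neither pair of neighbours differed beyond its spread. Against blood, lrNK cells had a log2 fold change of 1.76 ± 0.57, a fold of 3.38, higher in 4 of 5 donors (edgeR, Benjamini-Hochberg adjusted p = 0.0355). This call was lost without donor 2 (1.51; edgeR, Benjamini-Hochberg adjusted p = 0.167), donor 3 (1.70, adjusted p = 0.0873) or donor 5 (1.49, adjusted p = 0.075). It was also lost with a robust fit (1.76; edgeR, Benjamini-Hochberg adjusted p = 0.092), and over all alternatives the adjusted p ran from 0.00217 to 0.167.

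Within the liver, KLRD1 had a log2 fold change of 0.95 ± 0.56 in lrNK against CD8α high cells, higher in 4 of 5 donors and not called (edgeR, Benjamini-Hochberg adjusted p = 0.308). It was called without all libraries of donor 1 (1.88; edgeR, Benjamini-Hochberg adjusted p = 0.0338) and without the liver CD8α high library of donor 1 alone (1.72; adjusted p = 0.0298), and over all alternatives the adjusted p ran from 0.0298 to 0.868. Leaving out donor 5 took it down to 0.24. Liver CD8α high cells against blood gave 0.80 ± 0.56, higher in 3 of 5 donors and not called (edgeR, Benjamini-Hochberg adjusted p = 0.9996), and 0.03 without the liver CD8α high library of donor 1, 0.17 without all libraries of donor 1 and 1.24 without donor 5.

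KLRB1 encodes CD161, a receptor that binds the lectin-like protein LLT1, the product of CLEC2D. Blood libraries held 212, 329, 255, 386 and 191 CPM in donors 1 to 5. Liver CD8α high libraries held 687, 334, 349.6, 387 and 239.8 CPM. Those of lrNK cells held 1544, 1089, 193, 2316 and 1793 CPM. The lrNK libraries of donors 1, 2, 4 and 5 were above every other library, and that of donor 3 was at the low end of the blood range. Liver CD8α high levels overlapped those of blood, with donor 1 above the rest.

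KLRB1 means were ordered lrNK cells at 1387 ± 801 CPM (n = 5), liver CD8α high cells at 399 ± 169.5 CPM and blood at 275 ± 81.4 CPM, and the last 2 did not differ beyond their spread. Against blood, lrNK cells had a log2 fold change of 2.34 ± 0.42, a fold of 5.05, higher in 4 of 5 donors (edgeR, Benjamini-Hochberg adjusted p = 0.000348). Without the lrNK library of donor 3 it was 2.63, and the adjusted p (edgeR and DESeq2, Benjamini-Hochberg) ran from 4.53e-08 to 0.00588 over all alternatives. Set against liver CD8α high cells it was 1.80 ± 0.41, a fold of 3.48, higher in 4 of 5 donors (edgeR, Benjamini-Hochberg adjusted p = 0.00395), and 2.08 without that library, with adjusted p from 1.08e-06 to 0.0466 over all alternatives. Liver CD8α high cells against blood gave 0.54 ± 0.40, higher in 5 of 5 donors and not called (edgeR, Benjamini-Hochberg adjusted p = 0.9996). Without the liver CD8α high library of donor 1 that value was 0.25, and without all libraries of donor 1 it was 0.19.

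The 4 receptor genes were set against each other across the 15 libraries as a description, with Pearson's r of log2 CPM. These points share donors and populations, so r also carries the differences between populations. KLRG1 and KLRB1 had r = -0.769, and KLRG1 and KLRD1 had r = -0.548. KLRD1 and KLRB1 had r = 0.463, KLRG1 and KLRK1 had 0.310, KLRK1 and KLRB1 had 0.180, and KLRK1 and KLRD1 had -0.308. Taken as deviations from the population mean, KLRK1 and KLRB1 had the highest r of the 6 pairs, 0.706, and among lrNK libraries both were lowest in donor 3. Without that library (n = 14) this r was -0.0259, and over the libraries as they stand r of KLRK1 and KLRB1 was -0.129 and that of KLRG1 and KLRK1 0.109. By deviations the other pairs had -0.616 (KLRG1 and KLRB1), -0.537 (KLRG1 and KLRK1), -0.130 (KLRK1 and KLRD1), 0.119 (KLRD1 and KLRB1) and -0.0798 (KLRG1 and KLRD1). The last 3 were -0.223, 0.244 and -0.0897 without the lrNK library of donor 3, and without the liver CD8α high library of donor 1 they were -0.0655, -0.0734 and 0.0488.

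The genes whose pattern over the 15 libraries was most like that of each receptor were sought among 3701 genes with a mean of at least 50 CPM. For KLRG1 they were S100A4 (r = 0.994), DENND1B (0.994) and ZNF683 (0.992). KLRK1 was most like HOPX (0.962), HNRNPH3 (0.961) and CHMP1B (0.928). For KLRB1 the nearest were RAP1A (0.960), CAB39 (0.942) and LOC733579 (0.942). KLRD1 had lower values, with IL24 (0.806), RPS6KA1 (0.803) and FCMR (0.803). By deviations from population means, HOPX and HNRNPH3 were again among the 3 nearest to KLRK1 (0.956 and 0.954), as were IL24 and FCMR for KLRD1 (0.787 and 0.779), while for KLRG1 and KLRB1 the 3 nearest were others, led by RCSD1 (0.885) and BICDL1 (0.940). With the lrNK library of donor 3 left out, r with KLRK1 was 0.877 for HOPX, 0.858 for HNRNPH3 and 0.742 for CHMP1B. By deviations without that library, r was 0.866 for HOPX and 0.846 for HNRNPH3 with KLRK1, 0.767 for BICDL1 with KLRB1 and 0.860 for RCSD1 with KLRG1. By deviations without the liver CD8α high library of donor 1, r with KLRD1 was 0.661 for IL24 and 0.649 for FCMR.

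In the gene table of Sscrofa11.1 all 4 receptor genes lie on chromosome 5. KLRK1 is at 61646691 to 61655386 and KLRD1 next to it at 61662083 to 61673109. Farther on, KLRB1 is at 62244787 to 62257691 and KLRG1 at 62506001 to 62523969. None of the 4 overlaps another gene in that table. The interval from KLRK1 to KLRG1 spans 877279 bases and holds 28 genes, of which 12 passed the filter and 8 had no count in any library.

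Of the 8 tested genes in that interval other than the receptors, lrNK cells had 3 called higher and 1 called lower relative to blood, against 8.62% and 9.6% of all genes tested, with a median log2 fold change of 1.74. In lrNK against liver CD8α high cells 3 were higher and none lower by edgeR, against 6.96% and 7.68% of all genes tested, with a median of 1.71, or 2.32 without the liver CD8α high library of donor 1. In liver against blood CD8α high cells 0 of 8 were called by edgeR, 1 had an unadjusted p under 0.05 and 0 were called by DESeq2, with a median of -0.14, or -0.29 without the liver CD8α high library of donor 1. The 3 higher genes were KLRF1, CLEC2B and CLEC12A, and the lower one was GABARAPL1, an autophagy gene, at -1.09 (edgeR, Benjamini-Hochberg adjusted p = 0.0268). The call of GABARAPL1 was lost without donor 1 (-0.98), donor 2 (-1.04) or donor 5 (-1.02) and in a fit of only the populations compared (-1.09). Against liver CD8α high cells GABARAPL1 had -0.80 and was not called, but it was called with the donor as a block (-0.93), without donor 3 (-1.14) and without the lrNK library of donor 3 (-1.21).

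Without the liver CD8α high library of donor 1, 4 of the 8 interval genes were higher in lrNK cells in each comparison, as LOC100520308 was then called too. It had 2.68 against blood with and without that library, and 1.88 against liver CD8α high cells, which became 3.27. LOC100520308 was also called against blood with the donor as a block (2.96), by DESeq2 (2.72), with no filter on low counts (2.67) and in a fit of only the populations compared (2.69). LOC110260744, which did not pass the filter, was called higher in lrNK than in liver CD8α high cells by DESeq2 (5.34) and with no filter (5.68).

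**Figure D2:**
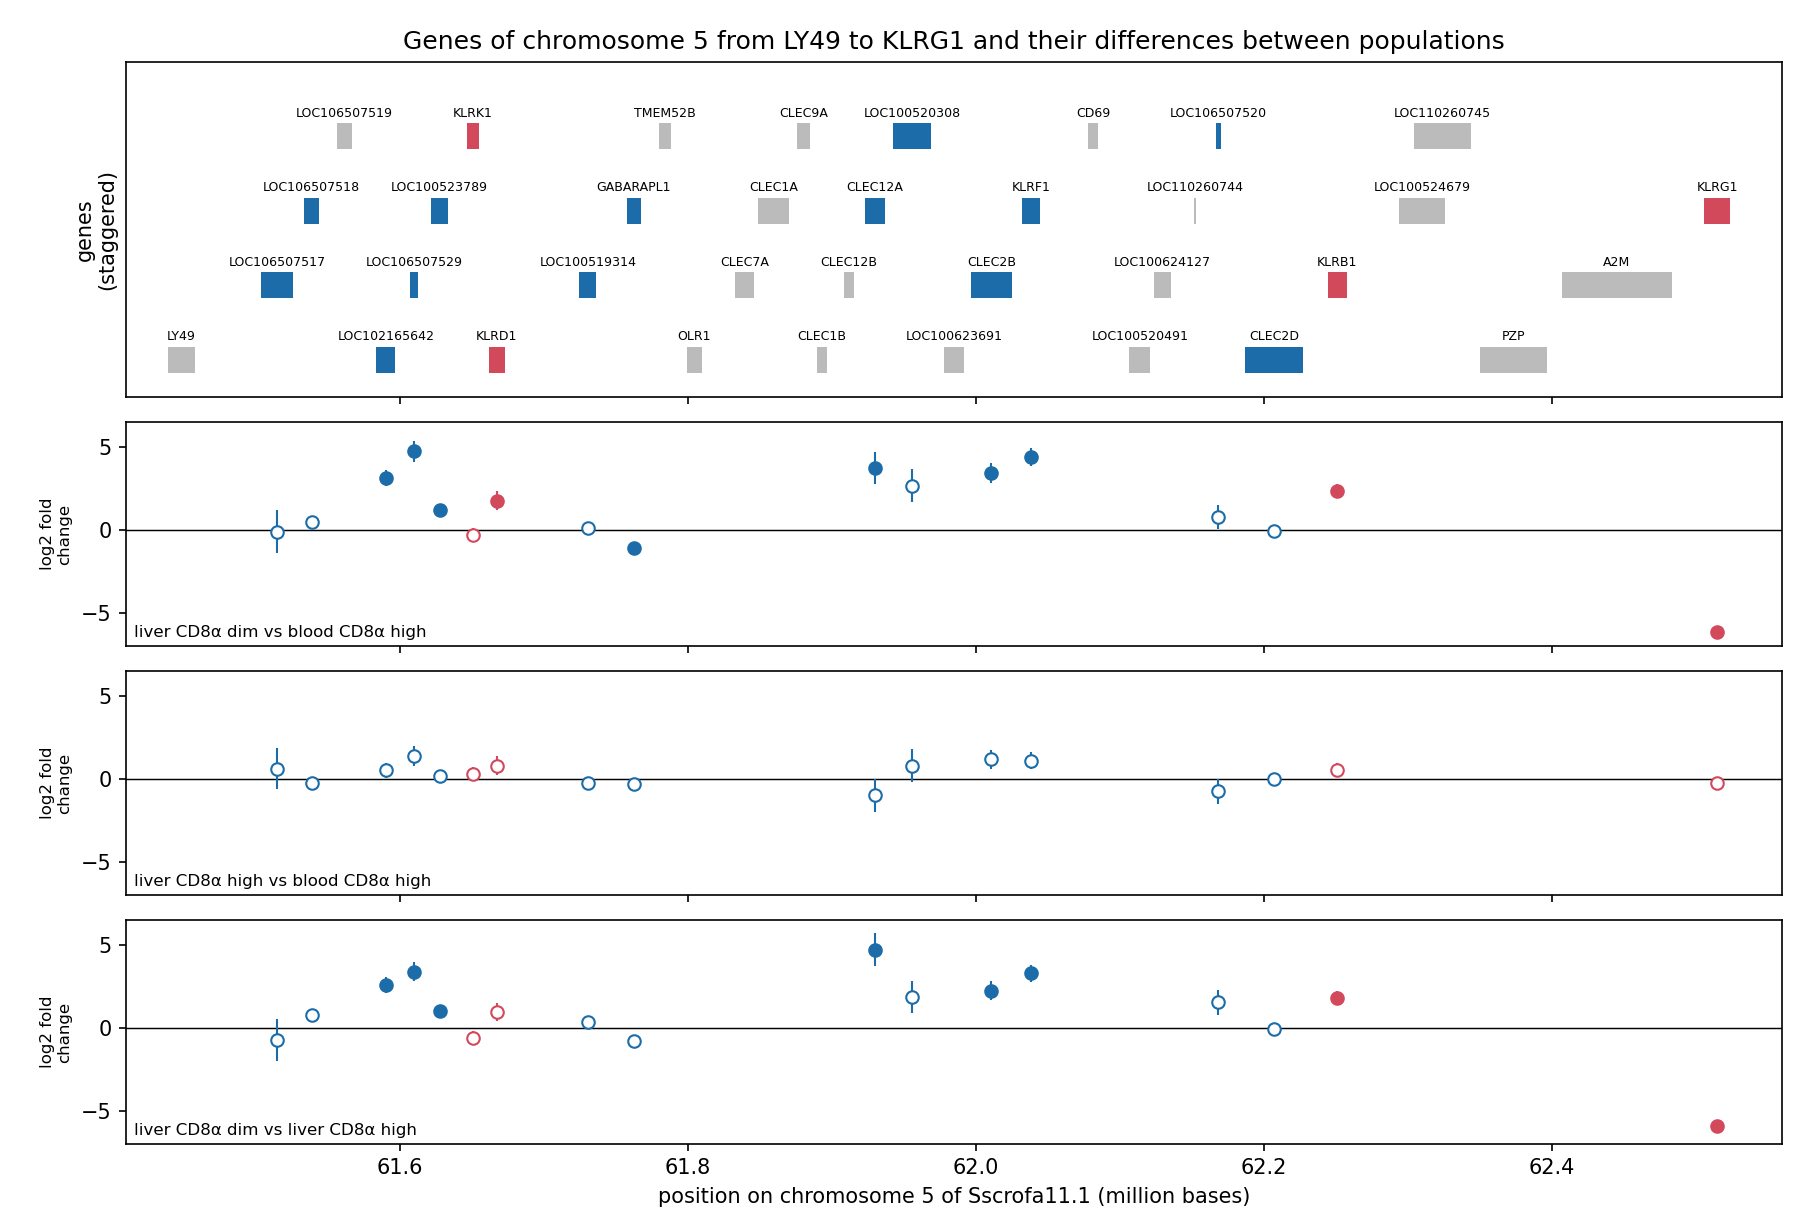
Genes of chromosome 5 (Sscrofa11.1, position in Mb) from LY49 to KLRG1, drawn to scale in staggered lines, above the log2 fold change ± SE of each gene tested in 3 comparisons; red marks the 4 receptor genes, blue other tested genes, grey untested genes, and filled points an adjusted p under 0.05. In lrNK cells against blood KLRF1 is at 4.39, KLRB1 at 2.34 and KLRG1 at -6.14.

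KLRF1 encodes NKp80, an activating receptor of the same family, and sits between KLRD1 and KLRB1 at 62032559 to 62044856. It had 1.90 to 7.67 CPM in blood, 3.10 to 33.8 CPM in liver CD8α high cells and 63.8 to 164 CPM in lrNK cells, and the lrNK libraries did not overlap the others. Against blood its log2 fold change was 4.39 ± 0.54 (edgeR, Benjamini-Hochberg adjusted p = 3.88e-06, higher in 5 of 5 donors), and against liver CD8α high cells 3.29 ± 0.50 (adjusted p = 7.13e-05, 5 of 5). Liver CD8α high cells against blood gave 1.10, not called (edgeR, Benjamini-Hochberg adjusted p = 0.988), and 0.29 without the liver CD8α high library of donor 1, which held the 33.8 CPM. Over 15 libraries KLRD1 and KLRF1 had r = 0.736, and 0.704 by deviations from population means, the latter 0.524 without the liver CD8α high library of donor 1 (n = 14).

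CLEC2B, next to KLRF1 at 61996760 to 62025260, encodes AICL, the ligand of NKp80. It had 0 to 7.95 CPM in blood, 5.02 to 25.2 CPM in liver CD8α high cells and 26.2 to 92.6 CPM in lrNK cells. Both genes of this receptor and ligand pair were thus called higher in lrNK cells than in blood, CLEC2B by a log2 fold change of 3.44 (edgeR, Benjamini-Hochberg adjusted p = 0.000274). Its value against liver CD8α high cells was 2.25 (edgeR, Benjamini-Hochberg adjusted p = 0.00781), a call lost without donor 2 (1.80) or donor 5 (2.06).

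CLEC12A, an inhibitory lectin-like receptor best known from myeloid cells, had 0 to 3.41 CPM in blood, 0 to 1.12 CPM in liver CD8α high cells and 2.49 to 56.0 CPM in lrNK cells, with the highest value in donor 3. Its log2 fold change of lrNK cells against blood was 3.74 (edgeR, Benjamini-Hochberg adjusted p = 0.00755). Without the lrNK library of donor 3 it was 2.83 and called, but 3.04 and not called when the donor was also a block, and without all libraries of donor 3 it was 2.87 and not called. Against liver CD8α high cells it was 4.73 (edgeR, Benjamini-Hochberg adjusted p = 0.00206).

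The wider family list held 23 further killer lectin-like and lectin-like genes. Among them, KLRG2 and CLEC2L lie on chromosome 18, outside the NK gene complex, and had no count in any library. Of the 23, 14 were matched to the count table, and 4 passed the filter: KLRF1, CLEC2B, CLEC12A and CLEC2D. Of these, 3 were called higher and 0 lower in both comparisons of lrNK cells, by edgeR and by DESeq2, where 8.62% and 6.96% of all genes tested were called higher. The medians were 3.59 against blood and 2.77 against liver CD8α high cells. From blood to liver CD8α high cells 0 were called by edgeR, 1 had an unadjusted p under 0.05 and 0 were called by DESeq2, with a median of 0.54, or 0.14 without the liver CD8α high library of donor 1. LY49, the single gene of the Ly49 receptors in pigs, had no count in 14 libraries and 0.478 CPM in liver CD8α high donor 5.

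The interval between LY49 and KLRK1, looked at after the data were seen, holds 6 genes known here by identifiers alone, of which 5 passed the filter. Compared with blood and with liver CD8α high cells alike, lrNK cells had 3 of the 5 called higher and none lower (edgeR), against 8.62% and 6.96% of all genes tested called higher. The medians were 1.23 and 1.02. They were 2.31 and 1.94 without the lrNK library of donor 3, and 2.17 and 2.07 without the liver CD8α high library of donor 1, when all 6 genes passed the filter. Between the CD8α high populations 0 were called by edgeR, 1 had an unadjusted p under 0.05 and 0 were called by DESeq2. LOC102165642 averaged 202 CPM in blood, 288 CPM in liver CD8α high cells and 1749 CPM in lrNK cells, and its log2 fold change in the latter against blood was 3.12 (edgeR, Benjamini-Hochberg adjusted p = 7.6e-05). LOC106507529, a noncoding RNA gene, had means of 3.54, 9.74 and 97.9 CPM in the same order and a log2 fold change of 4.75 (edgeR, Benjamini-Hochberg adjusted p = 1.11e-05). LOC100523789 had means of 632, 727 and 1477 CPM and a log2 fold change of 1.23 (edgeR, Benjamini-Hochberg adjusted p = 0.000191). What these genes encode was not determined here. LOC106507519, the gene that did not pass the filter, was called higher by DESeq2 on all libraries, against blood (3.54) and against liver CD8α high cells (3.80). It passed edgeR's filter in some fits with libraries left out, and without all libraries of donor 3 it was called in both (3.73 and 4.70). Without the liver CD8α high library of donor 1 it was called against liver CD8α high cells (4.53), and without the lrNK library of donor 3 it was called against blood (3.83) and against liver CD8α high cells (4.09), which makes 4 higher genes in each case.

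KLRK1 signals through DAP10, the product of HCST. HCST had 437, 347, 282, 263 and 272 CPM in blood, 385, 328, 277, 253 and 287 CPM in liver CD8α high cells, and 265, 193, 209.95, 245 and 213 CPM in lrNK cells of donors 1 to 5. Within each donor lrNK cells had the lowest level, though the populations overlapped by a narrow margin. The log2 fold change of lrNK cells against blood was -0.51 ± 0.17 (edgeR, Benjamini-Hochberg adjusted p = 0.0387, lower in 5 of 5 donors). That call was lost without donor 1 (-0.43), donor 2 (-0.43), donor 3 (-0.53), donor 5 (-0.53) or the lrNK library of donor 3 (-0.47), and in a fit of only the populations compared or with no filter on low counts, and over all alternatives the adjusted p (edgeR and DESeq2, Benjamini-Hochberg) ran from 0.0202 to 0.187. Against liver CD8α high cells it was -0.44 and not called (edgeR, Benjamini-Hochberg adjusted p = 0.0889), but called with the donor as a block (-0.43, adjusted p = 0.0459, with 0.0413 to 0.313 over all alternatives). HCST overlaps NFKBID by 2728 bases in the gene table, and how reads of overlapping genes were counted was not stated in the sources used here.

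The log2 ratio of KLRK1 to HCST within a library was -0.16, 0.89, 1.59, 1.99 and 1.45 in blood. It was 0.78, 1.21, 1.37, 1.98 and 2.34 in liver CD8α high cells and 0.32, 1.91, -1.47, 1.57 and 2.45 in lrNK cells. The populations overlapped, and the lowest ratio was that of lrNK donor 3. The mean difference of lrNK cells against blood was -0.19 (exact permutation test, two-sided, p = 0.833, Benjamini-Hochberg adjusted p over the 3 comparisons 0.833), against liver CD8α high cells -0.58 (exact permutation p = 0.532, adjusted 0.798), and of liver CD8α high cells against blood 0.38 (exact permutation p = 0.452, adjusted 0.798). The test took the libraries as unpaired, although each donor gave every population. The smallest p that 5 against 5 unpaired libraries allow is 0.00794. Without the lrNK library of donor 3 the first difference was 0.41 and the second 0.03, so both turned sign. With a donor or that library left out, the first ran from -0.50 to 0.52 and the second from -0.90 to 0.03, and the third was 0.25 without donor 1. KLRK1 and HCST had r = 0.0841 over 15 libraries and -0.300 by deviations, and -0.407 and -0.711 without that library (n = 14).

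Of 16 listed adaptors and signalling genes downstream of activating receptors, 15 were matched to the count table and all 15 passed the filter. In lrNK cells against blood 2 were called higher, 2 lower and 11 not called, beside 8.62% and 9.6% of all genes tested, and DESeq2 called 5 of the 15. The median log2 fold change was 0.05, and -0.088 without the lrNK library of donor 3. LCP2, the adaptor SLP-76, had 0.82 (edgeR, Benjamini-Hochberg adjusted p = 0.000169) and PLCG2, a phospholipase C, had 0.64 (adjusted p = 0.00399). The lower genes were HCST and PLCG1, the other phospholipase C of the pathway, at -3.20 (edgeR, Benjamini-Hochberg adjusted p = 0.00723), a call lost without donor 1 (-2.85) or donor 4 (-2.30). With the donor as a block 4 were higher, 2 lower and 9 not called, as VAV2 (3.81) and VAV3 (0.40) were called too. Without the lrNK library of donor 3, PIK3R1 was called lower (-0.42) while HCST was not called. TYROBP, which encodes the adaptor DAP12, had means of 150.4 CPM in blood, 149.8 CPM in liver CD8α high cells and 167 CPM in lrNK cells and was not called (0.15; edgeR, Benjamini-Hochberg adjusted p = 0.669).

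In lrNK against liver CD8α high cells, 2 of the 15 were higher, 2 lower and 11 not called, beside 6.96% and 7.68% of all genes tested, and DESeq2 called 5. The median was 0.07, or 0.03 without the lrNK library of donor 3 and 0.13 without the liver CD8α high library of donor 1. LCP2 had 0.61 (edgeR, Benjamini-Hochberg adjusted p = 0.00304) and PLCG2 had 0.60 (adjusted p = 0.00753), the latter not called without donor 2 (0.54). PLCG1 had -3.85 (edgeR, Benjamini-Hochberg adjusted p = 0.00193), and SH3BP2, an adaptor, had -1.30 (adjusted p = 0.0119), a call lost without donor 1 (-1.14), donor 2 (-1.29) or donor 5 (-1.24). With the donor as a block 4 were higher, 3 lower and 8 not called, as VAV2 (4.64), VAV3 (0.61) and HCST (-0.43) were called too. VAV3 was also called without donor 4 (0.68). Without the lrNK library of donor 3, 3 of the 15 were lower, with PIK3R1 added (-0.46; -0.49 without all libraries of donor 3). VAV2 had 2.90 against blood and 3.15 against liver CD8α high cells, not called. Without the liver CD8α high library of donor 1 it was called in both, at 2.90 and 5.704, as it was without donor 1, at 3.76 and 5.94. DESeq2 (2.96 and 3.13) and a fit with no filter (2.89 and 3.13) also called VAV2 in both, and a fit of only the populations compared called it against blood (2.90). Between the CD8α high populations 0 of 15 were called by edgeR, 0 had an unadjusted p under 0.05 and 0 were called by DESeq2, with a median of -0.01, or 0.0068 without the lrNK library of donor 3 and -0.10 without the liver CD8α high library of donor 1.

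Of the 3 phosphatase genes that inhibitory receptors recruit, PTPN6, which encodes SHP-1, was called higher in lrNK cells than in blood (0.91; edgeR, Benjamini-Hochberg adjusted p = 0.00278) and than in liver CD8α high cells (0.81; adjusted p = 0.00814). PTPN11 had 0.41 and INPP5D 0.20 against blood, and neither was called. INPP5D was 726 CPM in lrNK donor 3 and 234 to 352 CPM in the other lrNK libraries, and without that library it turned to -0.14 against blood. The list's medians were 0.41 against blood and 0.34 against liver CD8α high cells, or 0.63 and 0.51 without that library, and without the lrNK library of donor 3 (0.63) or without donor 3 (0.64) PTPN11 was also called against blood, 2 of 3. Of all genes tested, 8.62% were called higher against blood and 6.96% against liver CD8α high cells. In liver against blood CD8α high cells 0 of 3 were called by edgeR, 0 had an unadjusted p under 0.05 and 0 were called by DESeq2, with a median of 0.10, or -0.03 without the liver CD8α high library of donor 1.

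Ligands of the receptors were read in the same cells. Of 14 listed, 6 were matched to the count table and 5 of these passed the filter. The unmatched genes could not be read. Of the 5, 2 (CLEC2B and CDH1) were called higher in both comparisons of lrNK cells, beside 8.62% and 6.96% of all genes tested. In each, 0 were called lower, and edgeR and DESeq2 each called 2 of the 5. The medians were -0.07 against blood and 0.08 against liver CD8α high cells. Both turned sign without the lrNK library of donor 3, to 0.20 and -0.098, and with the donor as a block they were 0.36 and -0.063. Without the liver CD8α high library of donor 1 the latter was 0.04. CDH1 encodes E-cadherin, a ligand of KLRG1, and had 0.542 to 14.1 CPM in blood, 8.27 to 13.7 CPM in liver CD8α high cells and 11.7 to 78.4 CPM in lrNK cells. Its log2 fold change against blood was 2.30 (edgeR, Benjamini-Hochberg adjusted p = 0.00406). Against liver CD8α high cells it was 1.89 (edgeR, Benjamini-Hochberg adjusted p = 0.0166), a call lost without donor 2 (1.89), donor 4 (1.38) or donor 5 (1.85). CLEC2D, the ligand gene of KLRB1, had 741 to 1317 CPM over the 15 libraries and a log2 fold change of -0.07 against blood (edgeR, Benjamini-Hochberg adjusted p = 0.788), and its sign turned to 0.03 without donor 1. CDH2 and CDH4, further cadherin ligands of KLRG1, were not called, but without the lrNK library of donor 3 CDH4 was called lower in lrNK cells than in blood (-3.39, from -1.61 with it), as it was without all libraries of donor 3 (-3.53). For liver against blood CD8α high cells, 0 of 5 were called by edgeR, 0 had an unadjusted p under 0.05 and 0 were called by DESeq2, with a median of 0.40.

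**Figure D3:**
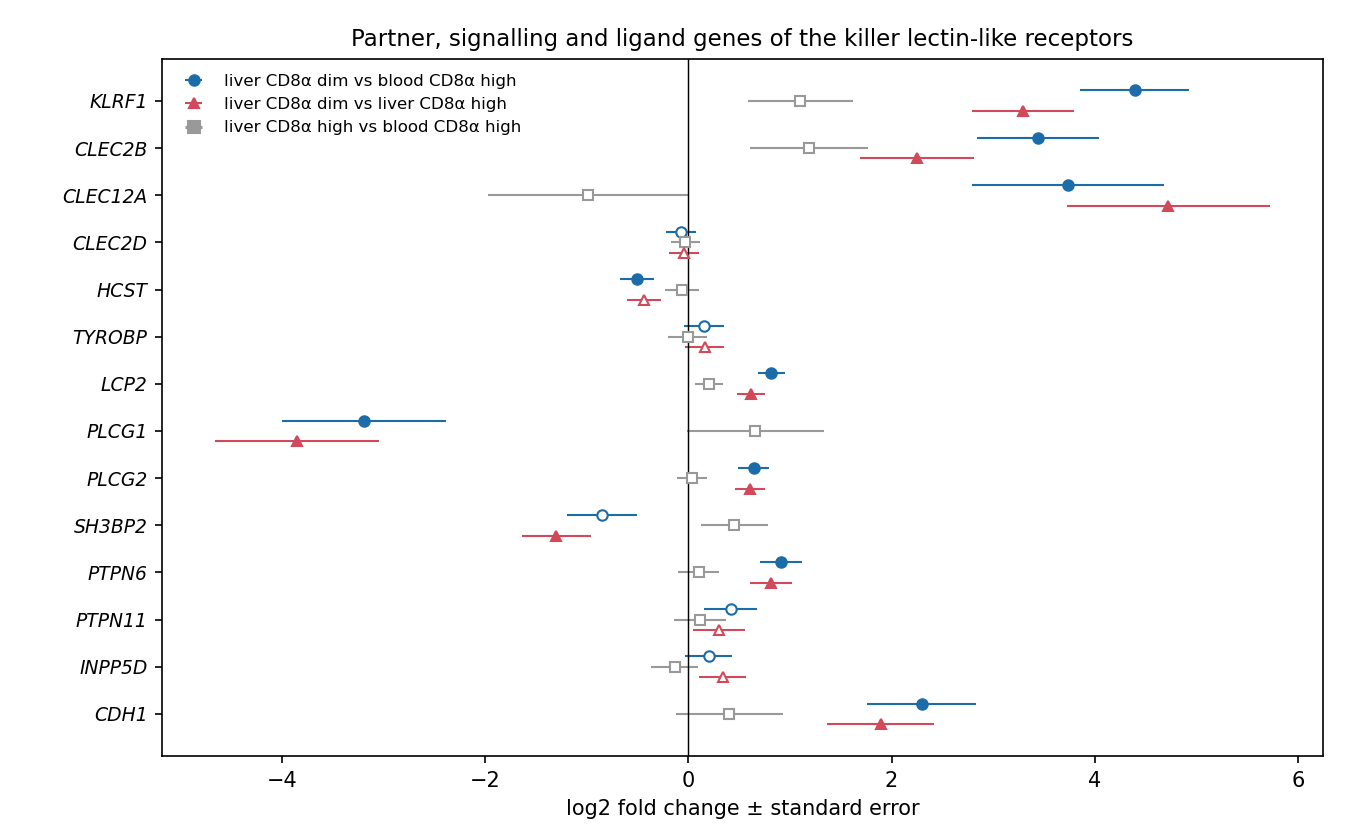
Log2 fold change ± SE (x axis) of partner, signalling and ligand genes of the receptors in 3 comparisons, from edgeR on 5 libraries per population; filled points have an adjusted p under 0.05 and no grey square does. KLRF1 (4.39) and CLEC2B (3.44) are higher in lrNK cells than in blood, while CLEC2D (-0.07) and TYROBP (0.15) are near 0.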

How the data were processed

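The deposited counts per gene were used as the authors gave them, made from reads aligned to Sscrofa11.1 with HISAT2 according to the submitters' processing notes. How reads were counted (tool, strand setting, multi-mapped reads) was not given in the sources used here. Each of the 15 columns has a known population and donor. The test was that of edgeR 4.0.16 under R 4.3.3 (TMM, default filter by population, quasi-likelihood test, all 15 libraries in 1 fit without block, Benjamini-Hochberg over 10939 genes). The SE is the size of the log2 fold change over the square root of F. Alternatives used DESeq2 1.42.0. Log2 CPM has a prior count of 2. Tables, permutation tests and plots used Python 3.11.15, pandas 2.3.3, scipy 1.17.1 and matplotlib 3.10.9. The code was tested on simulated data.

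The members and lists were chosen with earlier results of these data known. Named are the receptor genes; list and interval genes with an adjusted p under 0.05 in at least 1 comparison; the 3 genes most like each receptor; and of each marker list the most abundant and every called gene. Some list genes not called are named with their values. Positions come from RefSeq's gene table of Sscrofa11.1, which matched 29862 of 29886 genes by symbol. A ratio of KLRC1 to KLRD1 was not computed.

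Pairing by donor comes from the sample labels and from the study's statement that blood and liver cells came from the same animals. Deviations from population means correlated within donors (mean 0.107 over 15 pairs, against -0.0265 over 60 pairs of other donors), so fits were repeated with the donor as a block.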

Additional observations from a re-analysis of the deposited data

Results flagged for a closer look

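The 53 list, interval and marker genes that passed the filter, the 4 receptor genes among them, and the ratio of KLRK1 to HCST gave 162 groups of 5 libraries. Each was tested for a stray value by Dixon's ratio, the gap to the nearest library over the whole range, set against its critical value. The set was widened to all these genes after the data were seen. A stray value was found in 20 groups, and chance flags about 1 in 20. The groups share libraries, so the 20 are not independent. None of them is KLRG1, KLRK1, KLRD1, KLRB1 or the ratio.

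In the liver CD8α high library of donor 1, the one nearest to the lrNK libraries on the first principal component, 7 genes were above the other donors of that population. KLRF1 was 33.8 CPM against 3.10 to 10.3 CPM (ratio 0.765) and LOC106507529 was 31.8 CPM against 0.955 to 7.53 CPM (0.787). LOC100520308 was 20.4 CPM against 0 to 3.45 CPM (0.831), and VAV2 was 11.05 CPM against 0 to 1.39 CPM (0.874). Of the genes that mark the populations, EOMES was 217.6 CPM against 14.1 to 62.5 CPM (0.762), CXCR6 was 153 CPM against 5.25 to 46.6 CPM (0.720) and NCR1 was 167 CPM against 11.2 to 40.6 CPM (0.812).

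In the lrNK library of donor 3, the one apart from its population, 6 genes stood out. CLEC12A was 56.0 CPM against 2.49 to 17.8 CPM in the other lrNK libraries (ratio 0.715), INPP5D was 726 CPM against 234 to 352 CPM (0.760), and CDH4 was 20.5 CPM against 0 to 3.92 CPM (0.809). PIK3CB, a kinase subunit, was 19.97 CPM against 3.84 to 7.89 CPM (0.749). Below the rest were PTPN11, at 53.6 CPM against 156 to 178 CPM (0.823), and TBX21, at 80.9 CPM against 201 to 246 CPM (0.725).

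The other 7 lay in further libraries. In blood donor 1, PTPN11 was 53.7 CPM against 112 to 132 CPM (ratio 0.747) and CDH4 was 38.5 CPM against 7.59 to 10.9 CPM (0.894). VAV1, an exchange factor of the activating pathway, was 137 CPM in blood donor 4 against 84.4 to 98.6 CPM (0.727), and 109 CPM in liver CD8α high donor 2 against 76.7 to 85.98 CPM (0.713). GABARAPL1 was 34.1 CPM in liver CD8α high donor 4 against 59.7 to 69.7 CPM (0.720). LYZ was 25.6 CPM in lrNK donor 4 against 0 to 6.65 CPM (0.740), and LOC106507520 was 31.9 CPM in lrNK donor 5 against 4.80 to 7.48 CPM (0.901). What lies behind these values was not tested.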

How the results depend on the processing

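Alternatives were DESeq2 and its size factors, other filters, a robust fit, the donor as a block, other prior counts, only the 2 populations compared, and each donor left out. Leaving out lrNK donor 3 (also with the block) or liver CD8α high donor 1 was chosen after seeing the data. For KLRG1, KLRK1, KLRD1 and KLRB1, 12 results under 180 alternatives kept direction and call in 172, lost the call in 4, gained one in 2 and reversed in 2. For 48 results of CLEC2D, TYROBP and the called genes of the lists and of the interval, marker and sort-check genes apart, 663 of 708 kept both, 24 lost and 6 gained a call, and 15 reversed. Of 30 values of the ratio of KLRK1 to HCST, 27 kept their side and 3 reversed. Alternatives for KLRC1 and its ratio to KLRD1 were not run.

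Over fits without 1 donor or 1 library, KLRK1 in lrNK cells against blood ran from -0.64 to 0.066 (0.029 without lrNK donor 3). KLRD1 against blood ran from 1.49 to 2.05 and lost its call in the robust fit (1.76), and against liver CD8α high cells it ran from 0.24 to 1.88 (1.72 without liver CD8α high donor 1). The ratio ran from -0.50 to 0.52 against blood (0.41 without lrNK donor 3) and from -0.90 to 0.027 against liver CD8α high cells. In each case the cause was not tested.

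Genes called between the CD8α high populations numbered 22 by DESeq2, 18 with no filter, 4 in the robust fit, 16 with only those populations, 0 to 12 with a donor or library left out (12 without lrNK donor 3) and 19 when the block was added to the last. Between lrNK and liver CD8α high cells 1051 to 1764 were called with a donor or library left out. The cause was not tested. The block alone changed calls of GABARAPL1, HCST, VAV2, VAV3, LOC100520308, CXCR6, LYZ and CD3E, and of no other gene of the lists; with lrNK donor 3 left out as well, that of CLEC12A (3.04) was lost.

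Values near 0 reversed as well, and the cause was not tested. With a donor or library left out, TYROBP ran from -0.0051 to 0.26 in lrNK cells against blood, from -0.015 to 0.30 against liver CD8α high cells (-0.012 without lrNK donor 3) and from -0.11 to 0.064 between the CD8α high populations, where it was 0.00487 with only those populations, 0.00687 and 0.0502 without donors 2 and 4, 0.0068 without lrNK donor 3 and 0.0059 with the block added. CLEC2D ran from -0.15 to 0.033, from -0.11 to 0.048 and from -0.056 to 0.0052 in the same order. Between the CD8α high populations LOC100523789 ran from -0.0084 to 0.32, PLCG2 from -0.0075 to 0.095 and PTPN6 from -0.027 to 0.199.

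KLRG1 in lrNK cells rests on 6 to 21 counts per library, and KLRF1 and CLEC12A in blood on few counts, so folds against these levels are imprecise. The same holds, among others, for PLCG1 in lrNK cells (0 to 7 counts), CLEC12A in liver CD8α high cells (0 to 6) and CXCR6 in blood (0 to 18).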
